A study of Sus scrofa with 8 samples.

Results

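The genes described here are those of the urea cycle and of ammonia handling in pig liver. They were chosen by name from a list of 9 genes (CPS1, OTC, ASS1, ASL, ARG1, NAGS, GLUL, GLS2 and GLUD1), without use of their values, and their rows were found in the deposited mRNA table by pairing Ensembl identifiers with symbols. Of the 9 genes, 8 were found among the 21607 identifiers of the table, and GLUL, which encodes glutamine synthetase, could not be paired with an identifier and was not analysed here. RNA-seq was performed on rRNA-depleted RNA from the livers of 4 sows of the Yanan pig, a breed native to China. The young group (YL) held 2 sows aged 180 days and the old group (OL) held 2 sows aged 8 years, with 1 library per sow and no treatment. The young sows had not given birth, whereas the old sows had been culled after many litters, so age and reproductive history cannot be told apart in these livers.

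The urea cycle is the main route by which the mammalian liver disposes of ammonia, and it is most active in the hepatocytes around the portal vein. Inside the mitochondrion, NAGS makes N-acetylglutamate, the activator that CPS1 needs in order to join ammonia and bicarbonate into carbamoyl phosphate, and OTC passes the carbamoyl group to ornithine to form citrulline. In the cytosol, ASS1 joins citrulline with aspartate, ASL splits the product into arginine and fumarate, and ARG1 cleaves arginine to urea and ornithine. GLUD1 and GLS2 feed the cycle with ammonia taken from glutamate and glutamine, and GLUL, in hepatocytes around the central vein, binds ammonia that escaped it.

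The values are CPM, reads scaled by the size of each library, and no gene length enters them, so levels are compared between livers for the same gene and not between genes. The listed mRNAs held 37.6 and 37.1 M reads in YL replicates 1 and 2 and 22.5 and 24.9 M in OL replicates 1 and 2. OL replicate 1 stood apart from the other livers in interferon-stimulated genes. Their summed level over 18 genes was 64.9 and 77.1 CPM in YL, 2112 CPM in OL replicate 1 and 52.4 CPM in OL replicate 2. The log2 fold change of each of the 8 genes and the median of each pathway list are therefore also given without OL replicate 1. All 10 hepatocyte markers with an identifier were expressed in every liver, and ALB, the gene of serum albumin, was at 29468 and 35205 CPM in YL and at 16534 and 23978 CPM in OL. The lists of markers are described after the genes of the cycle.

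None of the 8 genes differed between OL and YL by the thresholds, an adjusted p-value under 0.05 and an absolute log2 fold change above 1 (limma on log2(CPM + 1) over 16898 identifiers above 0 in at least 2 libraries, all 8 genes among them). None of the 16898 identifiers did either (0%), the smallest adjusted p-value being 0.213, and before adjustment 1145 were higher (6.78%) and 1509 lower (8.93%) in OL with p under 0.05. When whole reads were tested with edgeR's exact test, as the study did, 399 identifiers and none of the 8 genes were called. This is more than the study reported, so its count was not reproduced. Before adjustment, 0 of the 8 genes had p under 0.05 in limma and in both edgeR tests, and 1 (ASS1) had it in DESeq2. With 2 livers in each group, an exact permutation test of a single gene cannot go below p = 0.333.

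In 3 of the 8 genes, CPS1, ASS1 and ARG1, both OL values lay below both YL values, and in none did both lie above. Of all identifiers tested, 25.0% lay below in this way and 24.4% above. Of the 4152 identifiers with a mean of at least 5 CPM, a level that all 8 genes exceed, 37.6% lay below and 16.7% above, so the number of separated genes was near the background. The same 3 genes were below both YL values in OL replicate 2 alone, where 35.5% of all identifiers were, and 52.1% of those with a mean of at least 5 CPM. In OL replicate 1, 6 of the 8 genes were below both YL values (35.4% of all identifiers, 52.5% of those with a mean of at least 5 CPM). A log2 fold change below 0 was found for 7 of the 8 genes, against 52.9% of all identifiers and 62.9% of those with a mean of at least 5 CPM. The median log2 fold change over the 8 genes was -0.39, against -0.02 over all identifiers and -0.24 over those with a mean of at least 5 CPM. Without OL replicate 1 the median of the 8 genes was -0.099. TMM scaling moved the median over all identifiers from -0.02 to 0.036, that over identifiers with a mean of at least 5 CPM from -0.24 to -0.056, the share of lower genes among those with p under 0.05 before adjustment from 56.9% to 39.0%, and the median of the 8 genes to -0.19, and ARG1 then overlapped between the groups.

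**Figure D1:**
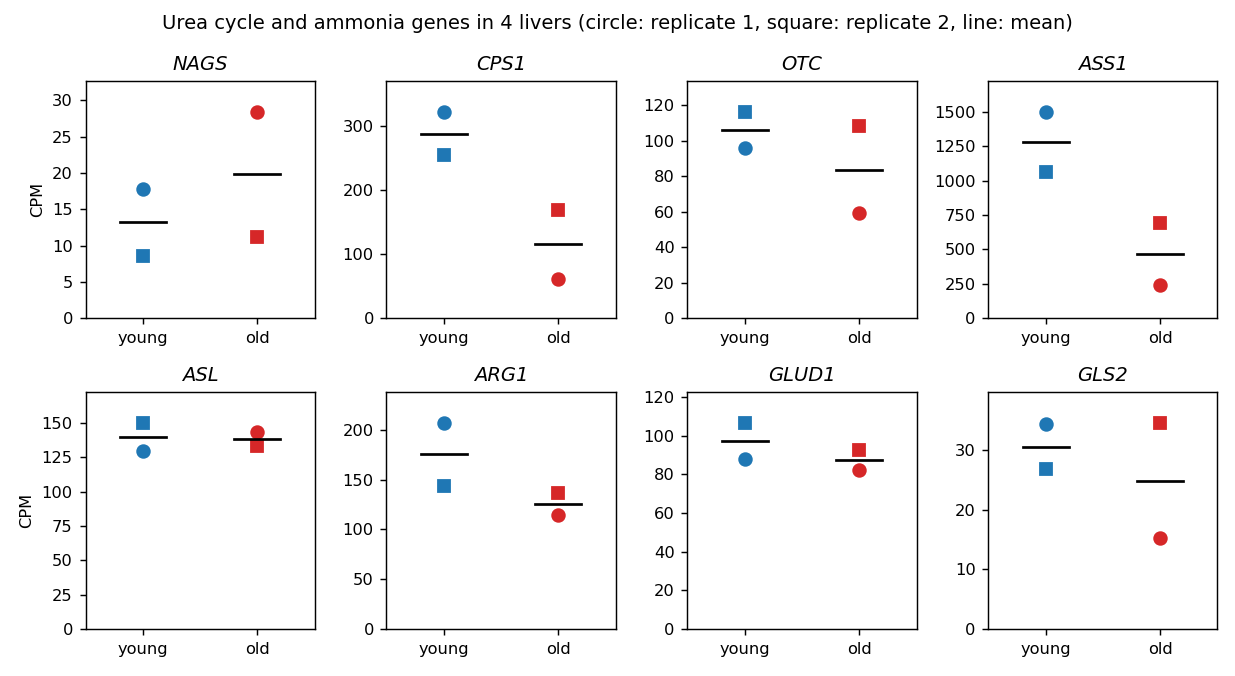
Level of each gene in CPM (vertical axis, from 0, with a scale of its own in each panel) in the 2 young and the 2 old livers, circles for replicate 1 and squares for replicate 2, with lines at the group means. CPS1 and ASS1 lie at 61.6 and 243 CPM in the first old liver, well below the young livers, while ASL stays between 130 and 150 CPM in all 4.

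CPS1 and ASS1 had the largest differences of the 8 genes. CPS1 (ENSSSCG00000016159), the enzyme of the entry step, was at 323 and 255 CPM in YL and at 61.6 and 169 CPM in OL replicates 1 and 2. Both old livers lay below both young livers, and the old livers were 2.74-fold apart from each other. The group means were 288.6 ± 48.0 CPM (SD, n = 2) in YL and 115.3 ± 76.0 CPM in OL, a 2.50-fold lower mean in OL. On log2(CPM + 1) the difference was -1.48 (standard error 0.59, 95% interval -3.27 to 0.31, adjusted p = 0.376, limma). It was -0.76 without OL replicate 1 and -2.20 without OL replicate 2.

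ASS1 (ENSSSCG00000005701), which brings the other nitrogen atom of urea into the cycle through aspartate, was at 1498 and 1064 CPM in YL and at 243 and 694 CPM in OL. As for CPS1, OL replicate 1 was the lowest liver and OL replicate 2 lay between it and the young livers. The group means were 1281 ± 307 CPM (SD, n = 2) in YL and 469 ± 319 CPM in OL, a 2.73-fold lower mean in OL. The log2 fold change was -1.62 (standard error 0.63, 95% interval -3.54 to 0.30, adjusted p = 0.369, limma), and -0.86 without OL replicate 1 and -2.37 without OL replicate 2. The intervals of both genes include 0. Values below -1, as both genes have, were found for 4.56% of all identifiers and 12.6% of those with a mean of at least 5 CPM. The lowest library of CPS1 held 3790 reads (95% Poisson interval 3670 to 3913) and that of ASS1 held 14962, so counting error is small beside the spread between the old sows.

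NAGS (ENSSSCG00000024179), which makes the activator of CPS1, was at 17.9 and 8.55 CPM in YL and at 28.4 and 11.2 CPM in OL. The groups overlapped, and the highest value was that of OL replicate 1, the liver with the lowest CPS1. The log2 fold change was 0.50 (standard error 0.64, 95% interval -1.43 to 2.43, adjusted p = 0.761, limma), and it was -0.13 without OL replicate 1. The ratio of CPS1 to NAGS was 18.1 and 29.8 in YL and 2.17 and 15.0 in OL. NAGS had the fewest reads of the 8 genes, 740 in YL replicate 2 (95% Poisson interval 688 to 795), and this liver and YL replicate 1 were 2.09-fold apart.

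OTC (ENSSSCG00000012236), the last mitochondrial enzyme of the cycle, was at 95.7 and 116 CPM in YL and at 59.2 and 108 CPM in OL. Only OL replicate 1 lay below the young livers, and OL replicate 2 was within their range. Its log2 fold change was -0.39 (95% interval -1.52 to 0.73, adjusted p = 0.680, limma) and 0.036 without OL replicate 1.

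ASL (ENSSSCG00000007738), the enzyme directly after ASS1, was the most even of the 8 genes in CPM, at 130 and 150 CPM in YL and at 143 and 133 CPM in OL. Its highest value was 1.16 times its lowest. With TMM factors its scaled levels were 118 and 143 in YL and 154 and 143 in OL. GLUD1, between 80.3 and 102, was then more even. Between the groups the log2 fold change of ASL was -0.014 (95% interval -0.44 to 0.42, adjusted p = 0.975, limma), and its sign turned with the scaling, to 0.19 with TMM factors. It was -0.066 without OL replicate 1. The ratio of ASS1 to ASL, which does not depend on the scaling, was 11.6 and 7.09 in YL and 1.70 and 5.21 in OL. The lower ratio rested mainly on OL replicate 1, and the difference between the genes was not tested.

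ARG1 (ENSSSCG00000004195), which releases urea, was at 207 and 144 CPM in YL and at 115 and 137 CPM in OL. Both old livers were below both young livers, but OL replicate 2 was only slightly below YL replicate 2. The log2 fold change was -0.46 (standard error 0.25, 95% interval -1.22 to 0.30, adjusted p = 0.484, limma). With TMM factors the scaled levels were 189 and 137 in YL and 123 and 146 in OL, so the groups overlapped, and the log2 fold change was -0.26. Leaving out OL replicate 1 gave -0.34.

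GLUD1 (ENSSSCG00000010368), the mitochondrial glutamate dehydrogenase, was at 88.0 and 107 CPM in YL and at 82.1 and 92.8 CPM in OL. The groups overlapped, and the log2 fold change of -0.15 (95% interval -0.66 to 0.36, adjusted p = 0.729, limma) turned to 0.048 with TMM factors and was -0.063 without OL replicate 1. GLS2 (ENSSSCG00000000401), the liver-type glutaminase, was at 34.4 and 26.8 CPM in YL and at 15.2 and 34.6 CPM in OL. Here OL replicate 1 was the lowest liver and OL replicate 2 the highest, 2.28-fold apart. Its log2 fold change was -0.39 (95% interval -1.84 to 1.07, adjusted p = 0.756, limma) and 0.18 without OL replicate 1.

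**Figure D2:**
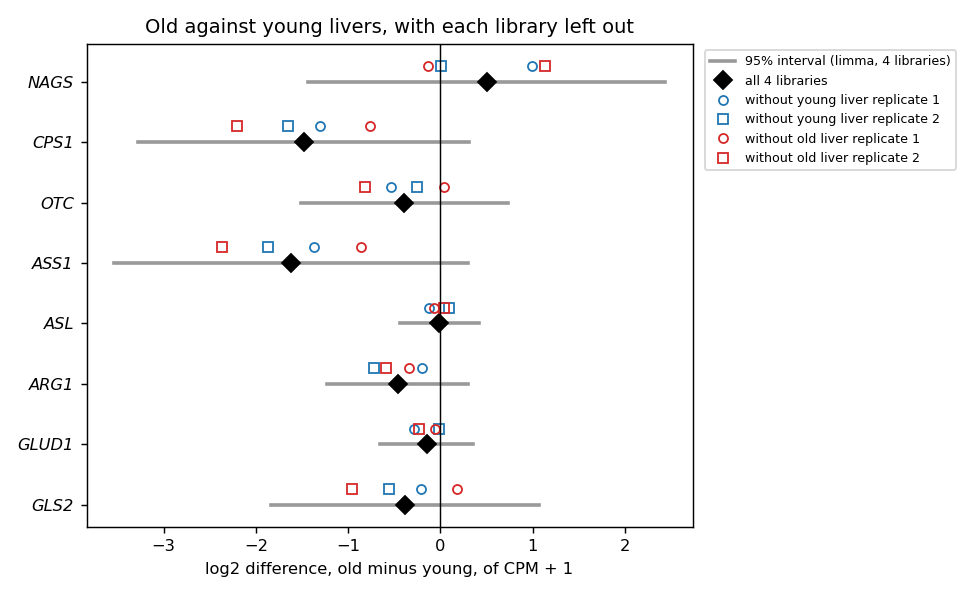
Log2 difference between old and young livers (horizontal axis, on log2(CPM + 1)) for the 8 genes, with the limma estimate as a diamond, its 95% interval as a bar and the estimate with each library left out as open symbols above it. All 8 intervals cross 0, and CPS1 and ASS1 stay negative whichever library is left out, between -2.20 and -0.76 and between -2.37 and -0.86.

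The ratio of 2 genes within a library is free of any scaling between libraries, and it was taken for all 28 pairs of the 8 genes after their values had been seen. CPS1 and ASS1 kept the most constant ratio of the 28 pairs. It was 0.215 and 0.239 in YL and 0.253 and 0.243 in OL, so the highest was 1.18 times the lowest, while CPS1 itself ranged 5.24-fold and ASS1 6.16-fold over the 4 livers. The ratio was still slightly higher in both old livers. The pairs share genes, so they are not independent of each other, and this pair was singled out after the values had been seen.

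**Figure D3:**
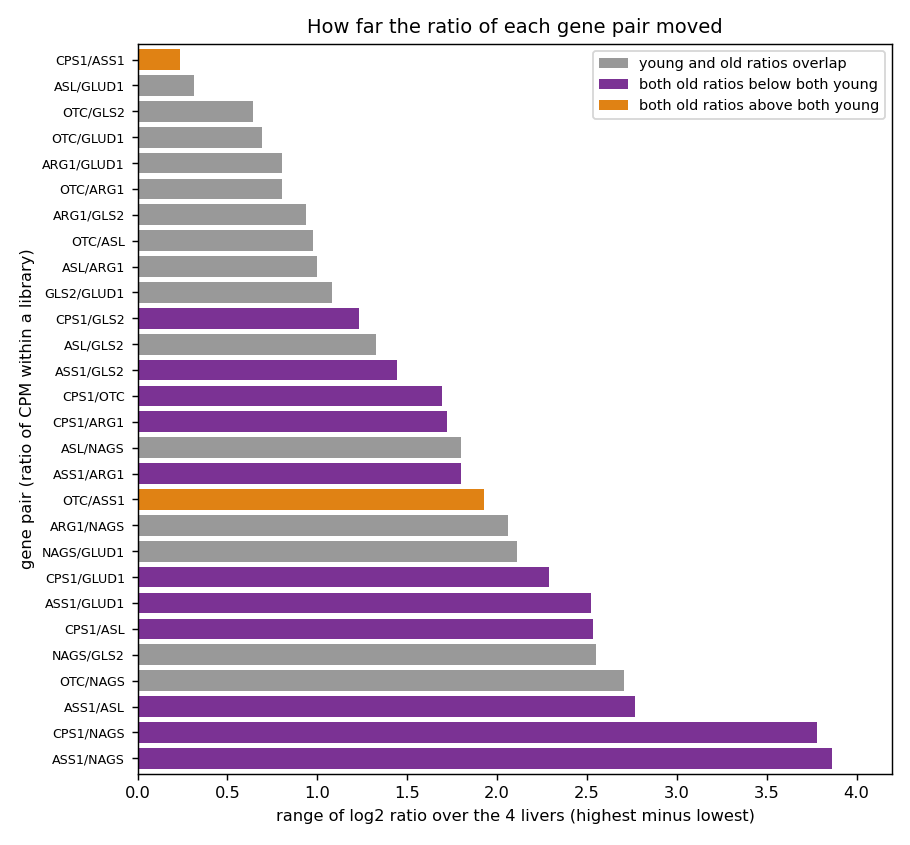
Range over the 4 livers of the log2 ratio of CPM for each of the 28 gene pairs (highest minus lowest, horizontal axis), coloured by whether the old and young ratios separate. The CPS1/ASS1 bar is the shortest at 0.23, and CPS1/NAGS and ASS1/NAGS are the longest at 3.78 and 3.86.

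The likeness of other genes to CPS1 was measured as the root mean square difference of log2(CPM + 1), centred on its mean over the 4 livers, among 2474 other genes with a symbol and a mean of at least 5 CPM. ASS1 ranked 2 with a difference of 0.091. VTN, the gene of the plasma protein vitronectin, ranked 1 (0.065), with 1298 and 1060 CPM in YL and 278 and 756 CPM in OL. ALDH7A1, an aldehyde dehydrogenase of lysine breakdown, ranked 3 (0.115), with 116 and 103 CPM in YL and 21.5 and 72.9 CPM in OL. Of the other genes of the cycle, OTC ranked 470, ARG1 595, ASL 1448 and NAGS 2243. GLS2 ranked 324 and GLUD1 1132. The ranks rest on 4 livers and describe only these profiles.

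A list of genes for transport and side steps of the cycle was examined next. It covers the carriers of ornithine, aspartate and glutamate across the mitochondrial membrane, amino acid importers and enzymes that compete for arginine or ornithine. Of 28 genes, 23 had an identifier and 22 were tested. None passed the adjusted threshold in limma, and before adjustment 2 were higher and 3 lower in OL with p under 0.05, against 6.78% and 8.93% of all identifiers. Both old livers lay below both young livers in 7 of the 22 genes and above them in 2, against 25.0% and 24.4% of all identifiers. In OL replicate 2 alone, 8 genes were under the young range and 7 over it, against 35.5% and 34.7% of all identifiers and 52.1% and 27.6% of those with a mean of at least 5 CPM. At a mean of at least 5 CPM, 37.6% of identifiers lay below in both old livers and 16.7% above, so the count below was near the background. The genes had a median log2 fold change of -0.13, which was -0.052 without OL replicate 1 and -0.28 without OL replicate 2.

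SLC38A4, an amino acid importer of hepatocytes, was at 142 and 104 CPM in YL and at 45.0 and 61.8 CPM in OL (log2 fold change -1.19, adjusted p = 0.249, limma). AQP9, a hepatocyte channel for water, glycerol and urea, was at 41.6 and 45.5 CPM in YL and at 14.4 and 26.8 CPM in OL. SLC25A22, a mitochondrial glutamate carrier, had the opposite direction, with 2.48 and 2.85 CPM in YL and 5.77 and 11.5 CPM in OL.

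NOS3, the endothelial nitric oxide synthase, which uses arginine, was at 0.457 and 0.624 CPM in YL (42 and 54 reads) and at 6.34 and 2.20 CPM in OL (390 and 158 reads). Both old livers were above both young livers. Its log2 fold change was 1.66 with an adjusted p-value of 0.287 in limma, and it passed the adjusted threshold in the exact test of edgeR (adjusted p = 0.0189). SLC25A15, which exchanges ornithine for citrulline across the mitochondrial membrane, was at 12.3 and 17.8 CPM in YL and 6.83 and 26.0 CPM in OL, and was named for its role in the cycle after its values were seen.

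Breakdown of amino acids supplies the nitrogen that the cycle removes, and of 32 genes of this kind 23 had an identifier. Before adjustment, 7 were lower and 2 higher in OL with p under 0.05, against 8.93% and 6.78% of all identifiers and 18.0% and 7.88% of those with a mean of at least 5 CPM, and none passed the adjusted threshold. In 13 of the 23 genes both old livers were below both young livers (25.0% of all identifiers, 37.6% of those with a mean of at least 5 CPM), and in OL replicate 2 alone 14 were below both (35.5% and 52.1%). The list's median log2 fold change of -0.77 became -0.27 without OL replicate 1. With TMM factors the median was -0.57 and 11 genes lay below in both old livers, where 27.6% of the identifiers with a mean of at least 5 CPM were.

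TDO2, the entry enzyme of tryptophan breakdown, was at 284 and 269 CPM in YL and at 154 and 98.4 CPM in OL (log2 fold change -1.16, adjusted p = 0.254, limma). KMO, a hydroxylase of the same route, was at 37.4 and 34.0 CPM in YL and at 11.1 and 15.0 CPM in OL. KYNU, a hydrolase that acts after it, was at 6.09 and 5.93 CPM in YL and at 2.15 and 2.41 CPM in OL. KMO and KYNU both had an adjusted p-value of 0.213 in limma, so none of the 3 genes passed the threshold. In these 3 genes each pair of livers of an age group was closer together than the groups were. They were named for an unadjusted limma p-value under 0.05 in these livers, which favours such genes, so this closeness is no separate result. In TDO2 the lower old liver was replicate 2, whereas in CPS1 it was replicate 1.

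GOT1, the cytosolic aspartate aminotransferase, which can supply the aspartate used by ASS1, was at 101 and 93.5 CPM in YL and at 48.8 and 41.0 CPM in OL (log2 fold change -1.11, standard error 0.15, adjusted p = 0.213, limma). BCKDHB and DBT are subunits of the branched-chain keto acid dehydrogenase complex. BCKDHB was at 35.1 and 26.9 CPM in YL and 14.5 and 18.5 CPM in OL, and DBT was at 19.3 and 15.7 CPM in YL and 9.44 and 10.16 CPM in OL. DLD, the subunit it shares with other dehydrogenase complexes, was at 8.77 and 8.47 CPM in YL and 2.84 and 4.44 CPM in OL. BCKDHA, another subunit, was at 3.32 and 3.84 CPM in YL and at 10.3 and 9.29 CPM in OL, so both old livers were above both young livers. FTCD, of the histidine breakdown route, was likewise higher in both old livers, with 8.02 and 5.88 CPM in YL and 21.2 and 26.0 CPM in OL (log2 fold change 1.64, adjusted p = 0.213, limma).

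**Figure D4:**
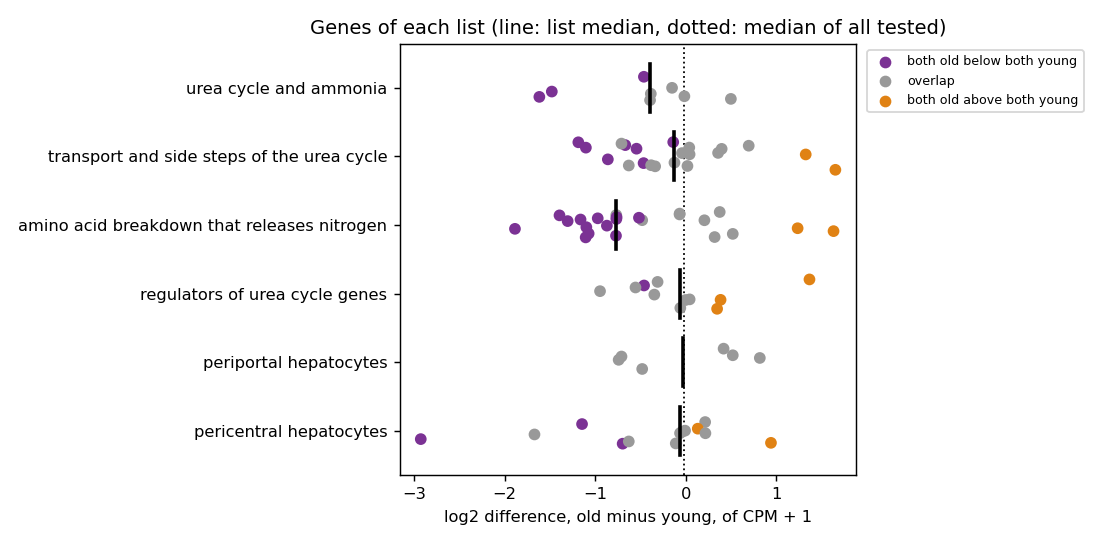
Log2 difference between old and young livers (horizontal axis, on log2(CPM + 1)) of each tested gene in 6 lists, with the list median as a line and the median of all identifiers tested as a dotted line, coloured by whether the old livers separate from the young. The amino acid breakdown genes have the lowest median, -0.77, and the urea cycle and ammonia genes the next, -0.39.

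Among regulators of urea cycle genes, 11 of 17 had an identifier, 1 was lower and 0 higher in limma with p under 0.05 before adjustment, against 8.93% and 6.78% of all identifiers. The median log2 fold change was -0.059, with -0.033 without OL replicate 1 and -0.37 without YL replicate 1. In OL replicate 2 alone, 2 were under the young range and 3 over it (35.5% and 34.7% of all identifiers). In the exact test of edgeR none of the 11 passed the adjusted threshold. NR1H4, the bile acid receptor FXR, was at 22.0 and 21.3 CPM in YL and at 16.8 and 14.2 CPM in OL (log2 fold change -0.46, adjusted p = 0.293, limma). CEBPA, a transcription factor of hepatocytes, was at 1.45 and 0 CPM in YL and at 3.43 and 2.69 CPM in OL. The value of 0 allows up to 3 reads, or 0.0347 CPM, in YL replicate 2. HNF4A, which was named for its role after its values were seen, was at 59.0 and 22.1 CPM in YL and at 43.0 and 30.4 CPM in OL.

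Liver zonation was examined because CPS1, ASS1 and ARG1 are periportal genes. Of the other periportal genes, 6 of 13 had an identifier, and in 0 of the 6 did the groups separate, against 25.0% of all identifiers below and 24.4% above. A list of 6 genes is too short to be read against these shares. The 2 with the smallest p-values were PIGR, the receptor that carries immunoglobulin A across epithelia (1.84 and 4.98 CPM in YL, 8.91 and 4.34 CPM in OL), and SLC7A2, an importer of arginine (43.2 and 20.2 CPM in YL, 13.0 and 24.0 CPM in OL). Over the list, the log2 fold changes had a median of -0.030, and of 0.17 with TMM factors. The sign of this median rested on single livers, as it was 0.30 without OL replicate 1, -0.54 without OL replicate 2 and 0.059 without YL replicate 1.

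Of the pericentral genes, 13 of 18 had an identifier, and 2 were lower and 1 higher with p under 0.05 before adjustment, against 8.93% and 6.78% of all identifiers and 18.0% and 7.88% of those with a mean of at least 5 CPM. CYP1A2, a drug-metabolising cytochrome, was at 339 and 554 CPM in YL and at 27.7 and 112 CPM in OL (log2 fold change -2.93, adjusted p = 0.282, limma). LECT2, a hepatocyte-secreted protein, was at 606 and 639 CPM in YL and at 240.1 and 329 CPM in OL. ZNRF3, which dampens Wnt signalling, was at 0.240 and 0.0460 CPM in YL (22 and 4 reads) and at 0.959 and 1.45 CPM in OL (59 and 104 reads). It was the higher gene and rests on few reads. The list had a median log2 fold change of -0.062, and of 0.039 with TMM factors. With single livers left out it was -0.14 without OL replicate 1, -0.93 without OL replicate 2, -0.25 without YL replicate 1 and -0.095 without YL replicate 2. Taken alone, OL replicate 2 was under the young range in 5 genes and over it in 5.

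The levels of cell type markers are given beside these differences. Of the 10 hepatocyte markers, 7 had a negative log2 fold change, and in 3 both old livers lay below both young livers and in 1 above. Of identifiers with a mean of at least 5 CPM, 62.9% had a negative log2 fold change, 37.6% lay below and 16.7% above. The counts of the markers were near these shares. The median of the 10 markers was -0.55, and it was -0.32 without OL replicate 1 and -0.35 with TMM factors. Their summed level was 50275 and 56945 CPM in YL and 35413 and 41530 CPM in OL. ALB made up 58.6% and 61.8% of the sum in YL and 46.7% and 57.7% in OL, and the other 9 markers summed to 20807 and 21740 CPM in YL and 18879 and 17552 CPM in OL. FGB weighed heavily in the sum of these 9, at 7407 and 4366 CPM in YL and 10375 and 3494 CPM in OL. The lower sum of the 9 in both old livers is therefore not a trait of each marker. Relative to the median of the hepatocyte markers in each library, the log2 fold change was -1.24 for CPS1 and -1.38 for ASS1, and it was 0.22 for ASL. The values of all identifiers summed to 408898 and 428910 CPM in YL and to 365330 and 346173 CPM in OL. In whole tissue, fewer hepatocytes, less RNA per hepatocyte and this lower total cannot be told apart.

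Endothelial markers summed to 70.8 and 73.0 CPM in YL and to 214 and 145 CPM in OL, with 4 of 5 higher on average in OL. Macrophage markers summed to 251 and 284 CPM in YL and to 397 and 390.1 CPM in OL, with 6 of 7 higher. T and NK cell markers summed to 12.2 and 13.6 CPM in YL and to 22.8 and 16.1 CPM in OL, with 8 of 10 higher and 2 lower. Among the 8 was an identifier of GZMA (ENSSSCG00000016902) with 0 and 0 reads in YL and 4 and 6 reads in OL. The other identifier of GZMA (ENSSSCG00000016903) was lower, at 3.31 and 3.33 CPM in YL and at 2.08 and 1.34 CPM in OL. The summed levels of these 3 lists did not overlap between the groups, but single genes weighed heavily in 2 of them. FCN2 was at 36.8 and 42.7 CPM in YL and 148 and 107 CPM in OL, and C1QA at 181 and 204 CPM and 255 and 241 CPM. Both old livers lay above both young livers in 2 of 5 endothelial, 4 of 7 macrophage and 6 of 10 T and NK cell markers. Both lay below in 0, 1 and 1. Of all identifiers, 24.4% lay above and 25.0% below, and 52.9% had a log2 fold change below 0. These lists are short. All endothelial and macrophage markers reached 1 CPM in at least 1 library, as did 9 of the 10 T and NK cell identifiers, the exception being an identifier of GZMA.

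Stellate cell and fibroblast markers summed to 20.7 and 40.2 CPM in YL and to 15.7 and 54.9 CPM in OL. Cholangiocyte markers summed to 9.40 and 11.8 CPM in YL and to 8.25 and 24.8 CPM in OL, and CFTR, EPCAM and SOX9 stayed under 1 CPM in every library. Erythroid markers summed to 622 and 429 CPM in YL and to 308 and 407 CPM in OL. B and plasma cell markers summed to 2.56 and 4.51 CPM in YL and 12.4 and 2.42 CPM in OL, and skeletal muscle markers to at most 2.31 CPM. All 18 interferon-stimulated genes had a positive log2 fold change, with a median of 2.04, which was 0.011 without OL replicate 1. The part of the cell markers and of the interferon-stimulated genes in the values of CPS1 and ASS1 was not tested. In OL replicate 2, where the interferon-stimulated genes were at 52.4 CPM in sum, CPS1 was at 58.6% and ASS1 at 54.2% of the young mean, and in OL replicate 1 they were at 21.3% and 19.0%.

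**Figure D5:**
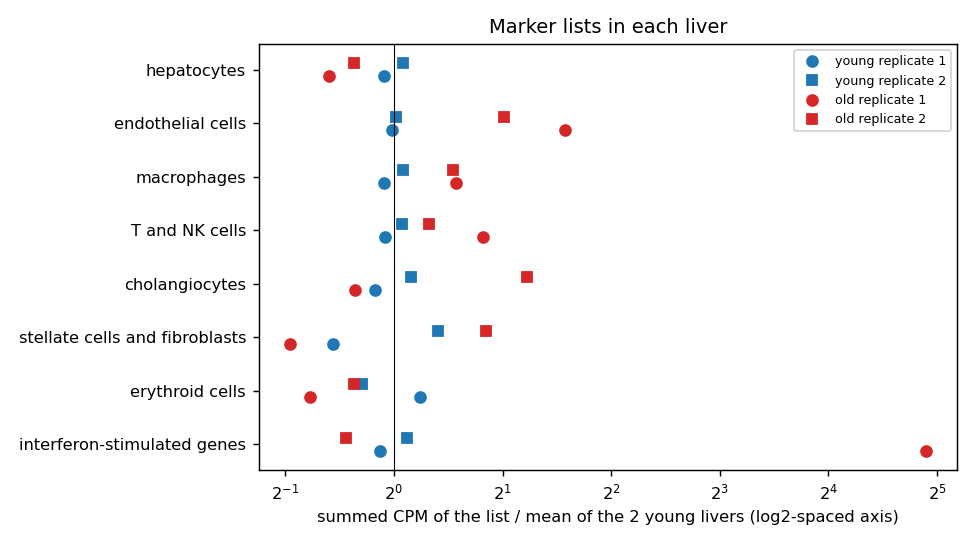
Summed CPM of each marker list in each liver, divided by the mean of the 2 young livers (horizontal axis, log2-spaced), circles for replicate 1 and squares for replicate 2. Interferon-stimulated genes are far to the right in the first old liver only, at 2112 CPM, and hepatocyte markers lie below the young livers in both old livers.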

How the data were processed

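RNA-seq libraries of 2 young and 2 old livers were used, with groups and replicate numbers from the sample titles. The CPM values of mRNAs were deposited by the authors, who name them TPM and state that clean reads were aligned to Sscrofa10.2 with TopHat2 (v2.0.14), assembled with StringTie (1.2.3) and quantified with Salmon (v0.6.0). Within each library the values were whole multiples of 1 step, and division by this step gave whole reads. Of the values above 0, 100% came within 0.1 read of a whole number. The lncRNA, circRNA and small RNA tables were not used here. Symbols were paired with 11654 of the 21607 identifiers.

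Log2(CPM + 1) was fitted with limma 3.58.1 over identifiers above 0 in 2 or more libraries in R 4.3.3, and p-values were adjusted by the Benjamini-Hochberg method. The study used the exact test of edgeR. That test, the quasi-likelihood test (edgeR 4.0.16) and DESeq2 1.42.0 were run on the recovered reads as alternatives. Other alternatives covered the pseudocount (0.1 and 5), the filter, the scaling (TMM, DESeq2 size factors, hepatocyte markers), an intensity trend, a replicate block and leaving out each library. Only the limma fit, and not the tests of edgeR or DESeq2, was tried on simulated data with 200 changed genes. The spread between simulated libraries was a fixed setting and was not estimated from these sows. Tables and figures were made with matplotlib 3.10.9, pandas 2.3.3, numpy 2.4.6 and scipy 1.17.1 in Python 3.11.15.

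The 8 genes were all named. From each further pathway list, genes with an unadjusted p-value under 0.05 were named or, where fewer than 2 had one, the 2 with the smallest p-value among those with a mean of at least 1 CPM. Of the genes so named, 1 is not reported here. The genes and lists were chosen with earlier results of these data known, although the values of the 8 genes were not used to choose them. Each sow gave 1 library, so the p-values measure the spread between sows. Poisson intervals and read limits cover counting error only, since PCR reads are not independent molecules. Transcript length and position were not used here.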

Additional observations from a re-analysis of the deposited data

How the results depend on the processing

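No gene of the 8 passed an adjusted p-value of 0.05 under any of the 16 alternatives, with values from 0.287 to 0.653 for ASS1 and from 0.289 to 0.668 for CPS1. CPS1, ASS1 and ARG1 kept a negative log2 fold change in all 16. Identifiers past the thresholds numbered 2 with a mean of at least 1 CPM required, 399 in the exact test of edgeR (345 higher, 54 lower), 880 in DESeq2 and 0 in the other alternatives (in the quasi-likelihood test of edgeR, p before adjustment was under 0.05 for 1954 higher and 520 lower). Of the 8 genes, 2 (CPS1 and ASS1) reached an unadjusted p-value under 0.05 with a mean of at least 1 CPM required, 1 in DESeq2, and from 0 to 2 with a library left out, the 2 being without OL replicate 2. The cause was not tested.

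The log2 fold change of ASL turned to 0.19 with TMM factors, 0.16 with DESeq2 size factors, 0.22 relative to hepatocyte markers, 0.18 in both tests of edgeR and 0.16 in DESeq2, and that of GLUD1 to 0.048, 0.025, 0.087, 0.041 and 0.016. On average over the groups, these scalings raise old values relative to the young. Scaling to hepatocyte markers does not raise OL replicate 1 relative to YL replicate 1. The median log2(CPM + 1) of the markers was 10.35 and 10.76 in YL and 10.50 and 10.14 in OL. With a library left out, ASL ranged from -0.12 to 0.092, OTC from -0.82 to 0.036, NAGS from -0.13 to 1.13 and GLS2 from -0.95 to 0.18, and OTC, NAGS and GLS2 turned without OL replicate 1 only. The median of the 8 genes ranged from -0.70 to -0.099. Where leaving out a library left 1 in a group, it was assumed to vary like the other group.

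With the replicate number as a block, 0 identifiers passed the thresholds and 0 of the 8 genes had an unadjusted p-value under 0.05. Nothing pairs the sows, and deviations of same-numbered libraries correlated at 0.090 over 16898 identifiers. The share of GLUL and the circRNAs and lncRNAs at these genes were not run, since GLUL was not paired with an identifier and no annotation of Sscrofa10.2 was used here. With 2 sows in each group, differences as large as those of CPS1 and ASS1 did not pass the adjusted test.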
